A study of Homo sapiens with 6 samples.

Results

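Mitochondria keep their own protein quality control, and the transcripts measured here encode 10 of its core components: the matrix proteases LONP1 and CLPXP (CLPX and CLPP), the inner membrane proteases YME1L1, AFG3L2, SPG7 and OMA1, and the matrix chaperones HSPA9, HSPD1 and HSPE1. These genes were chosen by symbol. All 10 were found among the 58395 genes in the deposited count files, and all 10 were among the 16542 genes that passed the filter on low counts. RNA was sequenced from THP-1, an established human line of acute monocytic leukaemia, in 3 libraries of cells exposed to 1 µM monensin for 16 h and 3 libraries of untreated cells. Monensin is an ionophore that exchanges sodium ions for protons across membranes. Both groups were the same line grown in RPMI medium with 10% serum, and the untreated label names no vehicle, so an effect of a vehicle and an effect of monensin cannot be told apart. The comparison addresses which of these transcripts differ after exposure.

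Proteins that enter the matrix are pulled in and folded by the HSP70 homologue HSPA9 (mortalin), and many are then folded inside the HSP60 chamber built from HSPD1 and closed by its lid HSPE1. Misfolded or surplus matrix proteins are degraded by LONP1 and by the CLPXP complex, in which CLPX unfolds substrates and CLPP cuts them. In the inner membrane, YME1L1 faces the intermembrane space, while AFG3L2 and SPG7 form the m-AAA protease that faces the matrix. OMA1 is a stress-activated inner membrane protease that cleaves the fusion protein OPA1 and the relay protein DELE1, through which mitochondrial stress can reach the eIF2alpha kinase HRI (EIF2AK1) and the transcription factor ATF4. The genes LONP1, CLPP, HSPA9, HSPD1 and HSPE1 are commonly read as targets of a mitochondrial unfolded protein response.

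The libraries held between 22975888 and 25710513 reads counted to genes. Of 11 myeloid marker genes, 10 were above 1 CPM (read counts scaled to a common library size) in all 6 libraries, with a summed level of 1833 to 1937 CPM in monensin libraries and 1912 to 1983 CPM in untreated libraries, while all 4 erythroid and all 3 epithelial markers had no read. Single myeloid markers moved both ways, from a log2 fold change of -1.44 for LYZ to 1.61 for FCER1G among those above 1 CPM. Summed T cell, B cell and fibroblast markers stayed at or below 2.66 CPM in every library. The endothelial sum of 305 to 328 CPM in monensin libraries and 258 to 265 CPM in untreated libraries was nearly all PECAM1, with CDH5 at 0. The part of these differences in the results was not tested. The myeloid marker not above 1 CPM throughout was CD14, with 2.37 ± 0.289 CPM in monensin libraries and 0.480 ± 0.0691 CPM in untreated libraries (SD, n = 3 each). Differences between the groups were common over the whole transcriptome. By edgeR's quasi-likelihood test at a Benjamini-Hochberg adjusted p under 0.05, 34.1% of tested genes were raised and 33.7% were lowered, or 67.8% in either direction. Scaled by total counts alone, 39.8% were raised and 27.8% lowered. In 71.1% of tested genes, no CPM value of one group lay within the range of the other. A call on a single gene therefore has to be read by its size.

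The 10 genes did not move together. LONP1 was the only one of them raised at least 1.5-fold, 6 were lowered (CLPX, CLPP, YME1L1, AFG3L2, HSPD1 and HSPE1), HSPA9 was raised slightly, and SPG7 and OMA1 passed the test in neither direction. Thus 2 of 10 were raised, against 34.1% of all tested genes, and 6 of 10 were lowered, against 33.7%. At a threshold of 1.5-fold added to the test, 1 was raised (LONP1) and 2 were lowered (HSPD1 and AFG3L2), against 18.8% and 12.0% of all tested genes. Both lowered genes lay close to that threshold, with log2 fold changes of -0.60 and -0.59. Both fell short of it after GC content and length trends were taken out (-0.49 and -0.37). They also did with total counts alone (-0.52 and -0.50). In 8 of the 10 the groups were without overlap, with monensin higher in 2 and lower in 6, against 35.9% and 35.2% of all tested genes. The median log2 fold change of the 10 was -0.26, and that of all genes tested was 0.02. In these bulk RNA samples, fewer cells that express a gene and less of its RNA per cell cannot be told apart.

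**Figure D1:**
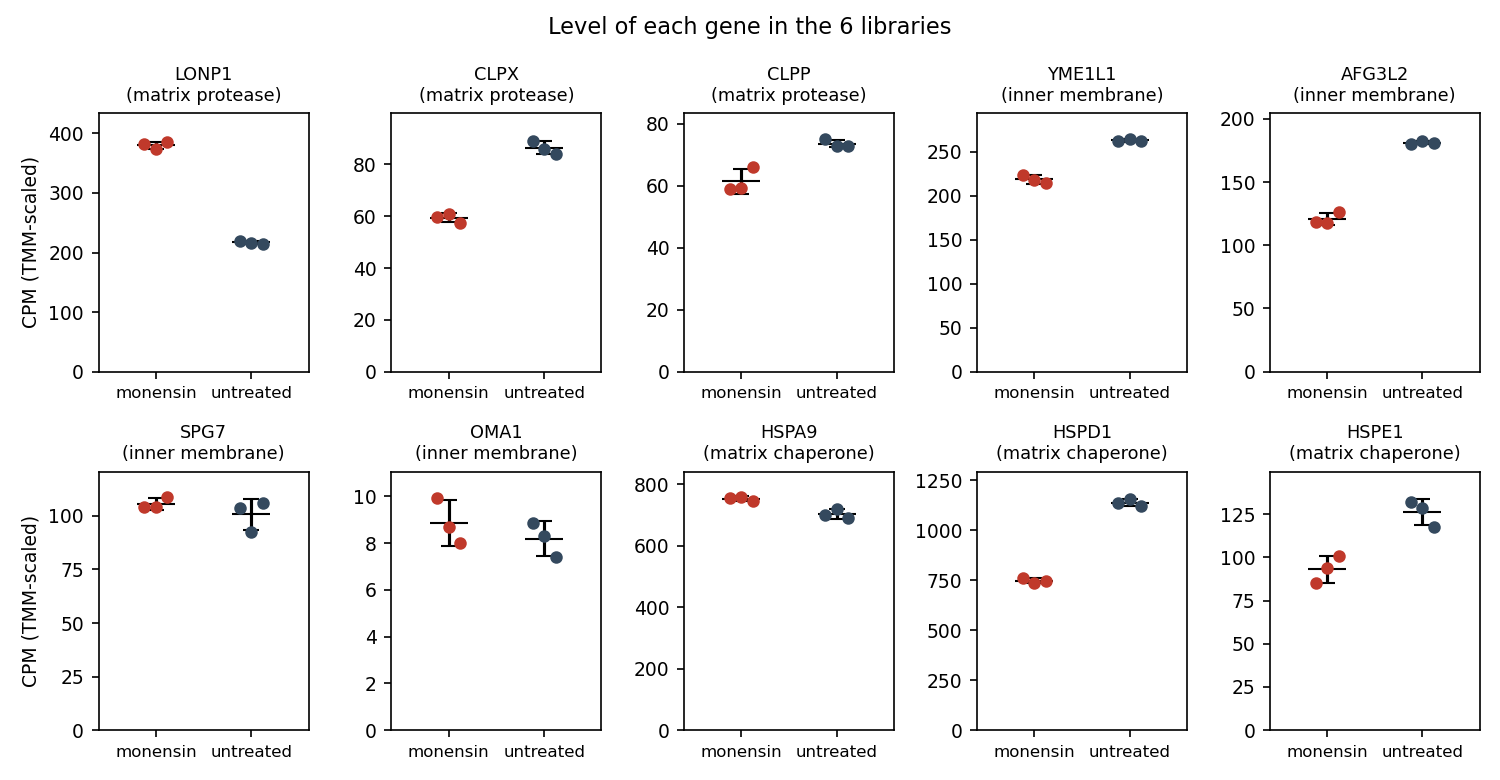
CPM after TMM scaling (vertical axis, from 0) of each of the 10 genes in the 3 monensin libraries (red, left) and the 3 untreated libraries (dark blue, right); bars are the mean ± SD. LONP1 is higher in every monensin library, and CLPX, CLPP, YME1L1, AFG3L2, HSPD1 and HSPE1 are lower in every monensin library, while the groups overlap for SPG7 and OMA1.

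LONP1, the ATP-dependent Lon protease of the matrix (chromosome 19, 5691834 to 5720572, minus strand, GENCODE 29 on GRCh38), had 382, 373 and 385 CPM in monensin libraries 1, 2 and 3, against 220.0, 216 and 215 CPM in untreated libraries 1, 2 and 3. The groups lay far apart, with little spread within either. The log2 fold change was 0.81 (SE 0.04, adjusted p = 4.97e-11), a 1.75-fold rise with a 95% interval from 1.66 to 1.85. This value stood at the 86.8th percentile of log2 fold changes over all genes tested, so a larger rise was not rare in these libraries. The call held under all 14 alternative fits, in which the log2 fold change ran from 0.60 to 0.89. LONP1 shares 43 exonic bases, 0.846% of its exonic length, with RPL36 on the opposite strand. RPL36 rose by 0.31 on the log2 scale, and by 0.04 after GC content and length trends were taken out (adjusted p = 0.361). The part of RPL36 in the LONP1 count was not tested.

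The RefSeq table (GRCh38.p14) lists windows around a pair of LONP1 transcript starts, each from 250 bases before the start to 50 bases from it onward. They are shown because LONP1 was the 1 gene of the 10 with a clear rise. In both, 5′ to 3′ on the gene's strand, capitals mark matches to any of the 3 motifs searched on both strands. These motifs were TGATGNAA, the core of the C/EBP-ATF response element bound by ATF4 and CHOP, GAANNTTC, the core of the heat shock element, and GCGCNTGCG, the core of the site of NRF1 (nuclear respiratory factor), a regulator of nuclear genes for mitochondria.
LONP1 start 1, chr19:5720097-5720396, minus strand: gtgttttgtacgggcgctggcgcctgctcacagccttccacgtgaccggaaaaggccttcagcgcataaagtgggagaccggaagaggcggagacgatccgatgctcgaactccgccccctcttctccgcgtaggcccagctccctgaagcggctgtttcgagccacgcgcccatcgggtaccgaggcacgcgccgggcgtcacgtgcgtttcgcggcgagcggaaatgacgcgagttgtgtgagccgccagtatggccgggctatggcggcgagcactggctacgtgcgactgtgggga
LONP1 start 2, chr19:5720403-5720702, minus strand: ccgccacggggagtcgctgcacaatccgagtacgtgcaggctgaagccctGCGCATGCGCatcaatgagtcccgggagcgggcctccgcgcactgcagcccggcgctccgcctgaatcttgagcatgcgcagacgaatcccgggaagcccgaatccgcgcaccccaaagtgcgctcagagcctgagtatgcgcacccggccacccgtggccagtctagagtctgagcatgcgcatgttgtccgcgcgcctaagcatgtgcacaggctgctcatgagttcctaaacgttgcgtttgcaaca
The first window held no match. The second held 2 overlapping matches to the NRF1 core on opposite strands, GCGCATGCG and CGCATGCGC, with first bases at positions -200 and -199 (the start base is position 0). Over 35116 windows of the same length, the NRF1 core matched in 7.47%, the C/EBP-ATF core in 3.62% and the heat shock core in 6.77%. Windows were listed for 8 of the 10 genes and not for CLPP and YME1L1. None of their 11 windows matched the C/EBP-ATF core. A match is a description of the letters, and no match says only that these letters are not in the window.

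CLPX, the unfoldase of CLPXP (chromosome 15, 65148219 to 65185342), had 59.6, 61.0 and 57.5 CPM in monensin libraries 1 to 3, against 89.2, 85.9 and 84.2 CPM in untreated libraries 1 to 3. The groups did not overlap, and the log2 fold change was -0.54 (SE 0.05, adjusted p = 7.07e-08). CLPP, the peptidase of the same complex (chromosome 19, 6361452 to 6368910), had 58.9, 59.4 and 66.1 CPM in monensin libraries, against 75.1, 73.0 and 72.9 CPM in untreated libraries. Every monensin library lay below every untreated one, by a smaller margin than for CLPX. CLPP fell by 0.26 in log2 units (SE 0.05, adjusted p = 0.000412). LONP1 thus rose while both genes of the other soluble matrix protease fell. After GC content and length trends were taken out, CLPX and CLPP changed places in size, with log2 fold changes of -0.33 and -0.54.

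YME1L1, the i-AAA protease (chromosome 10, 27110112 to 27155266), had 224, 218 and 214 CPM in monensin libraries and 262, 265 and 262 CPM in untreated libraries. The groups did not overlap, and the gene fell by 0.27 in log2 units (SE 0.04, adjusted p = 1.7e-05). That fall was absent after GC content and length trends were taken out, where the log2 fold change was -0.0079 (adjusted p = 0.847). YME1L1 shares 443 exonic bases, 6.04% of its exonic length, with MASTL, a mitotic kinase on the opposite strand, which fell by 1.29 on the log2 scale. The sources used here do not give the strand setting of the counting, and the part of MASTL in the YME1L1 count was not tested.

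AFG3L2 (chromosome 18, 12328944 to 12377314) can form the m-AAA protease alone or together with SPG7, also called paraplegin. AFG3L2 had 119, 117 and 126 CPM in monensin libraries, against 180.4, 183 and 181 CPM in untreated libraries. The untreated values stood close together and well above every monensin value. AFG3L2 fell by 0.59 in log2 units (SE 0.04, adjusted p = 8.05e-09), to 0.666 of the untreated level (95% interval 0.625 to 0.709), and the fall was 0.37 after GC content and length trends were taken out. It shares 837 exonic bases, 12.6% of its exonic length, with the tubulin gene TUBB6 on the opposite strand, which fell by 0.87 on the log2 scale. The part of TUBB6 in the AFG3L2 count was likewise not tested.

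SPG7, the partner of AFG3L2 (chromosome 16, 89490719 to 89557768), had 104, 104 and 109 CPM in monensin libraries, against 104, 92.5 and 106 CPM in untreated libraries. The groups overlapped, with untreated library 2 the lowest of the 6. The log2 fold change was 0.07 (95% interval -0.04 to 0.18, adjusted p = 0.253), so a rise of more than 1.13-fold or a fall below 0.971 of the untreated level lay outside the interval. Under scaling by total counts alone the log2 fold change was 0.16 and passed the test (adjusted p = 0.0176), and after GC content and length trends were taken out it was -0.063 (adjusted p = 0.283).

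OMA1, the protease of the stress relay (chromosome 1, 58415384 to 58546802), was the least abundant of the 10. Its read counts were 255, 217 and 187 in monensin libraries and 221, 194 and 183 in untreated libraries, or 9.93, 8.68 and 8.01 CPM against 8.86, 8.32 and 7.40 CPM. The groups overlapped. The log2 fold change was 0.12 (95% interval -0.10 to 0.33, or 0.934-fold to 1.26-fold, adjusted p = 0.319). OMA1 passed the test only after GC content and length trends were taken out (log2 fold change 0.25, adjusted p = 0.0295). It shares 257 exonic bases on the same strand with DAB1, for which 0 reads were counted in every library.

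HSPA9 (chromosome 5, 138553756 to 138575724) had 755, 760 and 745 CPM in monensin libraries, against 701, 719 and 689 CPM in untreated libraries. All monensin values were above all untreated values, by a small margin. HSPA9 rose by 0.10 in log2 units (SE 0.04, adjusted p = 0.0242), a 1.07-fold change with a 95% interval from 1.02 to 1.13. The call was lost when any 1 of 5 libraries was left out, with an adjusted p of 0.0637 for monensin library 1, 0.109 for monensin library 2, 0.0625 for untreated library 1, 0.0529 for untreated library 2 and 0.123 for untreated library 3. Its log2 fold change was 0.30 after GC content and length trends were taken out (adjusted p = 7.17e-07).

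HSPD1, the HSP60 subunit (chromosome 2, 197486581 to 197516737, minus strand), was the most abundant of the 10 in untreated cells. It had 763, 736 and 744 CPM in monensin libraries, against 1136, 1154 and 1120 CPM in untreated libraries. The groups were separated by several times the spread within each. HSPD1 fell by 0.60 in log2 units (SE 0.04, adjusted p = 8e-10), to 0.657 of the untreated level (95% interval 0.623 to 0.694). HSPE1, the HSP10 lid (chromosome 2, 197499994 to 197503457, plus strand), had 85.1, 93.8 and 101 CPM in monensin libraries, against 132, 129 and 118 CPM in untreated libraries. Its spread was wider than that of HSPD1, but the groups did not overlap. HSPE1 fell by 0.44 in log2 units (SE 0.06, adjusted p = 1.02e-05).

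HSPD1 and HSPE1 lie head to head, and the windows listed for them overlap by 204 bases around transcript starts that lie 105 bases apart on opposite strands. The HSPE1 window is shown because the pair fell together. It holds 1 match to the NRF1 core, GCGCCTGCG, in capitals, at positions -47 to -39 from its start, and the same bases lie at positions -66 to -58 from the HSPD1 start, read there from the other strand. A further HSPD1 start listed by RefSeq has a window that holds 1 match to the heat shock core searched, GAAAGTTC. It is the only match to GAANNTTC in the 11 windows, and the other order of the repeats was not searched.
HSPE1, chr2:197500129-197500428, plus strand: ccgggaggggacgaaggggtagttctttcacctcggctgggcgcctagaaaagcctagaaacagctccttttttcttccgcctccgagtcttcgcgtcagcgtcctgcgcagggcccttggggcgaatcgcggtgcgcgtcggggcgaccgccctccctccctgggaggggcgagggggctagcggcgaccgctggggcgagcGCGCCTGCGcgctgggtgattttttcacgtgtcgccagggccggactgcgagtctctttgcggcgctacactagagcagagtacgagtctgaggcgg
HSPD1 start 2, chr2:197499791-197500090, minus strand: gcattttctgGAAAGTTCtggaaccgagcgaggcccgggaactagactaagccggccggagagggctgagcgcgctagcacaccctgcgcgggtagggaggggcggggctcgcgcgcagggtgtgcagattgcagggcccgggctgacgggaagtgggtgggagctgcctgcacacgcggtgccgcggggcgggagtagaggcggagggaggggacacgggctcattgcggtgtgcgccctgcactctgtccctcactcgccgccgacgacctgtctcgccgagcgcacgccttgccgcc
The NRF1 core also matched in windows of OMA1, CLPX and SPG7, so the 6 genes with a match were a raised one (LONP1), 3 lowered ones (HSPD1, HSPE1 and CLPX) and 2 that were not called (OMA1 and SPG7). The NRF1 core is made mostly of G and C. The 11 windows had 63.7% to 76% GC, against a median of 58.7% over all windows. The part of GC content in these matches was not tested.

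Counts of HSPD1 and HSPE1 carry some doubt, because copies of both, mostly processed pseudogenes, lie elsewhere in the genome. The files hold 17 genes named as HSPD1 copies, whose reads came to 5.85% of the HSPD1 reads, and 26 named as HSPE1 copies, at 7.86% of the HSPE1 reads. The most abundant copy, HSPD1P1, had 28.1 ± 1.95 CPM in monensin libraries and 46.7 ± 1.36 CPM in untreated libraries (SD, n = 3 each) and fell by 0.73 on the log2 scale. HSPD1P12 fell by 0.97, HSPD1P6 by 0.77 and HSPE1P2 by 0.60, whereas HSPD1P4 rose by 0.57, and lost its call when monensin library 3 or untreated library 3 was left out (adjusted p = 0.0627 and 0.0768). Of the proteases, AFG3L2 has a related pseudogene, AFG3L1P, at 26.9 ± 1.42 CPM in monensin libraries and 29.1 ± 1.32 CPM in untreated libraries, which did not pass the test (adjusted p = 0.108) except after GC content and length trends were taken out (log2 fold change -0.22, adjusted p = 0.00291). The copy HSPA9P1 had 20, 20 and 29 reads in monensin libraries and 13, 12 and 7 in untreated libraries, or 0.0943% of the HSPA9 reads. The sources used here do not say how reads matching both a gene and its copy were divided, and these copy counts are uncertain as separate transcripts. HSPE1 also shares 168 of its 351 annotated coding bases (47.9%) on the same strand with the readthrough gene HSPE1-MOB4, for which 0 reads were counted in every library. HSPD1 and HSPE1 share 281 exonic bases on opposite strands, 6.62% of HSPD1 and 14.2% of HSPE1. The level of HSPE1 relative to other genes is uncertain for that reason, and its part in the change was not tested.

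**Figure D2:**
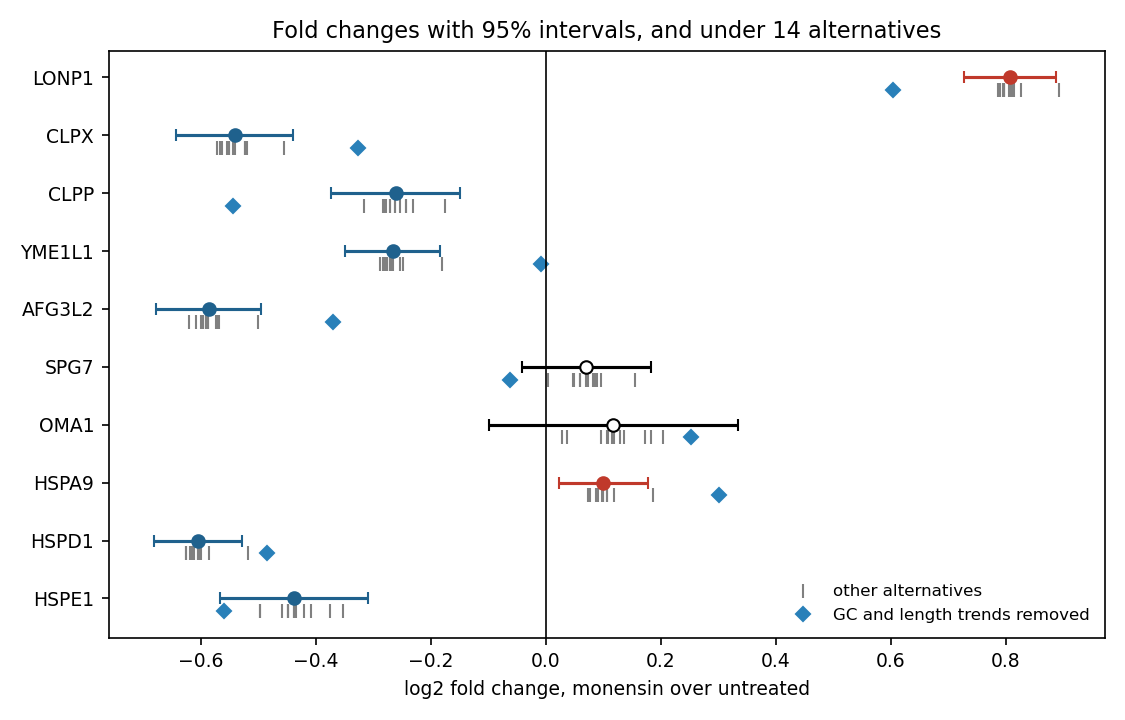
Log2 fold change of monensin over untreated (horizontal axis) for the 10 genes, with 95% intervals; filled circles passed the test, red raised and blue lowered, and open circles did not. Grey ticks and blue diamonds under each gene give 13 alternative fits and the fit after GC content and length trends were taken out: LONP1 stays between 0.60 and 0.89, and YME1L1 is near 0 only at its diamond.

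Levels of different genes were set side by side per length, as TPM (the length-scaled analogue of CPM) over the exonic length of each gene. HSPD1 was first in both groups, at 667 ± 23.4 TPM in monensin libraries and 887 ± 12.2 TPM in untreated libraries (SD, n = 3 each). HSPA9 was second, at 345 ± 10.8 TPM in monensin libraries and 282 ± 5.13 TPM in untreated libraries. LONP1 was the third at 283 ± 5.51 TPM in monensin libraries and the fourth at 141 ± 1.17 TPM in untreated libraries, where HSPE1, at 211 ± 9.21 TPM, stood above it. Below them, YME1L1, CLPP, AFG3L2, CLPX, SPG7 and OMA1 followed in this order in both groups, from 113 to 9.05 TPM in monensin libraries and from 119 to 7.29 TPM in untreated libraries. No neighbours in either order overlapped between libraries. With the longest transcript as the length, SPG7 stood at 44.7 ± 0.209 TPM in monensin libraries and 39.1 ± 3.02 TPM in untreated libraries, against 11.1 ± 0.0686 and 9.26 ± 0.725 TPM over its 36008 exonic bases, and CLPP and AFG3L2 overlapped in untreated libraries. The rank of SPG7 is therefore uncertain. So is that of HSPE1, because of the bases it shares with other genes, and with it the order of LONP1 and HSPE1. TPM values take no TMM scaling, and they serve here for order within a library.

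Reads of the 3 chaperones made up 0.164% ± 0.00236 of gene counts in monensin libraries and 0.191% ± 0.00278 in untreated libraries. Those of the 7 proteases made up 0.0982% ± 0.000836 in monensin libraries and 0.0902% ± 0.000991 in untreated libraries (SD, n = 3 each). The groups did not overlap in either share, so the chaperone share was lower and the protease share higher with monensin, although 4 of the 7 protease genes fell. The lower chaperone share rested on HSPD1: without it, HSPA9 and HSPE1 made up 0.0871% ± 0.00121 in monensin libraries and 0.0804% ± 0.00164 in untreated libraries. These shares take no TMM scaling. In the fit by total counts alone, log2 fold changes over all genes lay a median of 0.086 above those of the main fit. The part of scaling in the higher shares was not tested. The higher protease share rested on LONP1, which was at 8995 to 9794 reads in monensin libraries and 5043 to 5487 reads in untreated libraries. Without LONP1, the other protease genes together held a lower share of gene counts in every monensin library than in any untreated library.

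Ratios of reads between partners do not depend on scaling between libraries, though they do on GC content and length trends, and 6 were compared. The ratio of HSPA9 to HSPD1 was 0.991, 1.03 and 1.00 in monensin libraries 1 to 3, against 0.617, 0.623 and 0.615 in untreated libraries. The 2 chaperone transcripts gave nearly equal numbers of reads with monensin and unequal ones without. The ratio of SPG7 to AFG3L2, the partners in the m-AAA protease, was 0.876, 0.889 and 0.863 in monensin libraries, against 0.575, 0.506 and 0.585 in untreated libraries. The ratio of LONP1 to CLPP was 6.48, 6.28 and 5.83 in monensin libraries, against 2.93, 2.96 and 2.95 in untreated libraries. The ratio of CLPX to CLPP was lower, at 0.970 ± 0.0860 in monensin libraries and 1.17 ± 0.0171 in untreated libraries, and that of OMA1 to YME1L1 was higher, at 0.0406 ± 0.00354 in monensin libraries and 0.0312 ± 0.00284 in untreated libraries (SD, n = 3 each). For these 5 ratios the groups did not overlap, and the exact two-sided permutation test gave p = 0.1 (0.12 adjusted over the 6 ratios), the smallest p that 3 libraries against 3 allow. The ratio of HSPE1 to HSPD1 was 0.112, 0.127 and 0.135 in monensin libraries and 0.116, 0.111 and 0.105 in untreated libraries, where the groups overlapped (exact permutation p = 0.2). After GC content and length trends were taken out, an alternative chosen after seeing the data, the difference of log2 fold changes turned round for CLPX over CLPP (0.22, against -0.28 from the counts) and for HSPE1 over HSPD1 (-0.076, against 0.17). That for SPG7 over AFG3L2 was 0.31, against 0.66 from the counts, and the other 3 kept their sign.

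**Figure D3:**
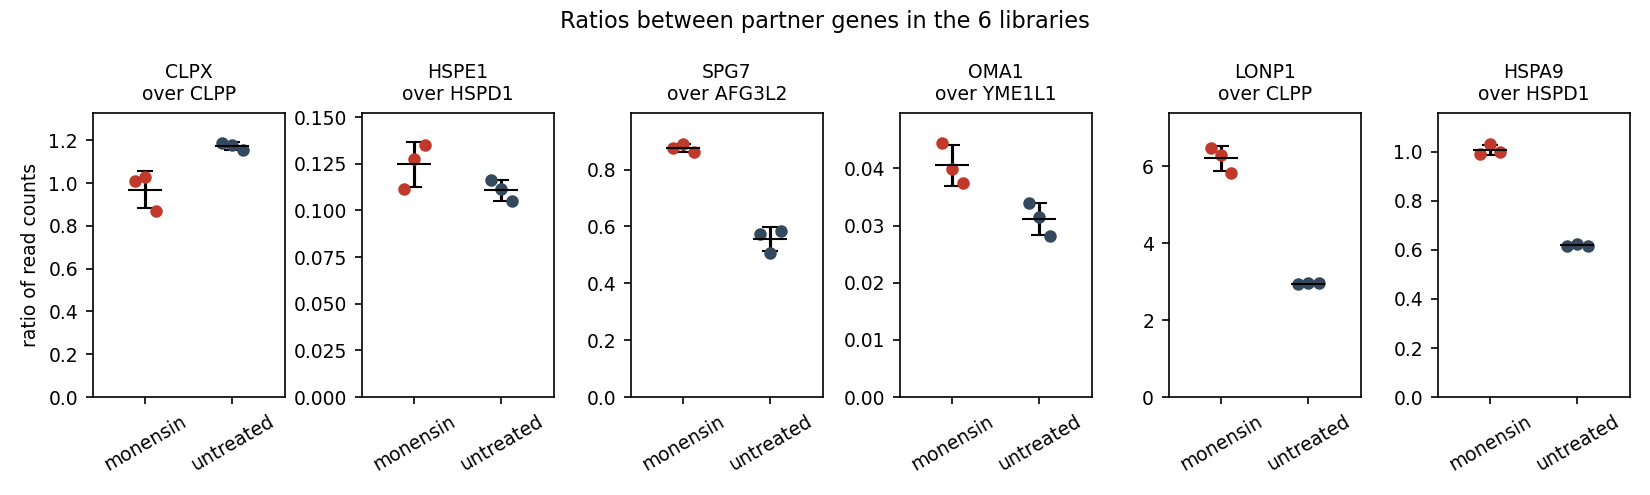
Ratio of read counts between 6 pairs of genes (vertical axes, each from 0) in the 3 monensin libraries (red, left) and the 3 untreated libraries (dark blue, right), with mean ± SD. The groups stand apart for 5 ratios, most widely for LONP1 over CLPP, and overlap for HSPE1 over HSPD1; the direction of CLPX over CLPP and of HSPE1 over HSPD1 turns round after GC content and length trends are taken out.

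Of 14 other peptidases of mitochondria, 7 were lowered, 4 were raised and 3 were not called, against 33.7% lowered and 34.1% raised among all genes tested. Their median log2 fold change was -0.27. The largest falls were those of MIPEP, the intermediate peptidase that trims imported proteins (7.34 ± 0.0809 CPM in monensin libraries, 13.8 ± 1.01 CPM in untreated libraries), IMMP2L, an inner membrane presequence peptidase (log2 fold change -0.79), the oligopeptidase NLN (-0.77) and ATP23 (-0.76). The raised ones changed little: PARL, the rhomboid protease that cleaves PINK1, rose by 0.27 in log2 units (SE 0.07), METAP1D by 0.24, LACTB by 0.22 and XPNPEP3 by 0.14, a call that was lost under 8 of the 14 alternatives.

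Among 12 other mitochondrial chaperones and co-chaperones, 6 were lowered and 3 were raised, against 33.7% and 34.1% of all genes tested. Their median log2 fold change was -0.18. CLPB, a disaggregase of the intermembrane space, had 57.9 ± 1.88 CPM in monensin libraries and 98.7 ± 4.09 CPM in untreated libraries. TRAP1, the mitochondrial HSP90, had 178 ± 8.94 CPM in monensin libraries and 270 ± 2.29 CPM in untreated libraries, and DNAJC11 fell by 0.51 on the log2 scale. The 2 nucleotide exchange factors of HSPA9 moved in opposite directions. GRPEL1 fell by 0.43 (SE 0.06, adjusted p = 6.76e-06) and GRPEL2 rose by 0.38 (SE 0.06, adjusted p = 2.71e-05). TIMM44, which tethers HSPA9 to the import channel, rose by 0.37 (SE 0.05). DNLZ, a helper of HSPA9, rose by 0.96 (SE 0.37) from few reads, 0.461 ± 0.0464 CPM in monensin libraries and 0.234 ± 0.0647 CPM in untreated libraries, and lost its call under 8 of the 14 alternatives.

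Of 12 substrates, partners and relay components of OMA1 and YME1L1, 9 were lowered and 1 was raised. Among all genes tested, 33.7% were lowered and 34.1% raised. The median log2 fold change of the 12 was -0.38. OPA1, the inner membrane fusion GTPase that OMA1 and YME1L1 cleave, had 80.3 ± 3.57 CPM in monensin libraries and 148 ± 13.3 CPM in untreated libraries and fell by 0.88 in log2 units (SE 0.06, adjusted p = 4.56e-09). PGAM5, a mitochondrial phosphatase, fell by 0.80. The scaffold proteins PHB and STOML2, which hold inner membrane proteases in larger complexes, fell by 0.60 and 0.47. PHB2, a further gene of this list that was picked out after its values were seen, was not called. Its log2 fold change was -0.017 (adjusted p = 0.791), and the groups overlapped. DELE1, the relay protein cut by OMA1, was the raised one, with 68.3 ± 1.41 CPM in monensin libraries and 61.8 ± 1.08 CPM in untreated libraries (log2 fold change 0.14, SE 0.05, adjusted p = 0.0136). Its call was lost with no filter (adjusted p = 0.0779) and when monensin library 2 or untreated library 2 was left out (adjusted p = 0.0534 and 0.0769). The kinase of the relay, EIF2AK1, which was picked out after its values were seen, had 172 ± 4.25 CPM in monensin libraries and 183 ± 1.13 CPM in untreated libraries (log2 fold change -0.09, adjusted p = 0.0620); it was called as lowered by DESeq2 (adjusted p = 0.0442), with RLE size factors (adjusted p = 0.0403) and with monensin library 3 left out (adjusted p = 0.0256). The relay acts through cleavage and phosphorylation, which transcript counts do not measure.

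Of 8 transcription factors tied to mitochondrial stress, 4 had log2 fold changes above 1.5, beyond that of any of the 10 genes. In all, 6 were raised and 1 was lowered, against 34.1% and 33.7% of all genes tested, with a median of 0.98. DDIT3 (CHOP) had 149 ± 8.28 CPM in monensin libraries and 12.2 ± 0.448 CPM in untreated libraries, and ATF5, a mammalian counterpart of the worm factor ATFS-1, had 203 ± 4.93 CPM in monensin libraries and 34.4 ± 1.93 CPM in untreated libraries (log2 fold change 2.56, SE 0.05). ATF4 rose by 1.76 and CEBPB by 1.59 on the log2 scale, whereas CEBPG, a partner of ATF4, rose by 0.36. HSF1 and NRF1 are given because their motifs were searched, and they were picked out after their values were seen. HSF1 rose by 0.30 (SE 0.05). NRF1, with 25.4 ± 0.0626 CPM in monensin libraries and 26.4 ± 1.51 CPM in untreated libraries, was not called (adjusted p = 0.418). TFAM, which packages mitochondrial DNA, was the lowered one, with 54.7 ± 3.03 CPM in monensin libraries and 104 ± 4.37 CPM in untreated libraries.

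Counterparts in other compartments were set beside the chaperones and LONP1. Of 18 cytosolic HSP70, HSP90, HSF1 target and CCT chaperonin genes, 13 were lowered, and BAG3, HSPA1B and HSPB1 were the 3 raised. Among all genes tested, 33.7% were lowered and 34.1% raised. The median log2 fold change of the 18 was -0.40. The chaperonin subunits CCT2 (-0.75), TCP1 (-0.62) and CCT7 (-0.57) and the HSP70 relative HSPA4 (-0.53) had the largest log2 fold changes. With GC content and length trends removed, 1 of the 18 was raised, against 35.2% of all genes in that fit. HSPA1B kept its call, and the values of HSPB1 and BAG3 were -0.084 (adjusted p = 0.0530) and 0.043 (adjusted p = 0.439). Of 5 ER chaperone and co-chaperone genes and the peroxisomal Lon protease gene LONP2, the 5 ER genes were raised, against 34.1% of all genes tested. Among HSP70s, HSPA5 of the ER rose by 0.88 (SE 0.04) and mitochondrial HSPA9 by 0.10 (SE 0.04). In the cytosol, HSPA1B rose by 0.42 (SE 0.05) and HSPA8 fell by 0.17 (SE 0.04), while HSPA1A was at 0.33 and was not called (adjusted p = 0.115). HSPA8, HSPA1A and CEBPG were picked out after their values were seen, and differences between compartments were not tested. HYOU1 rose by 1.17, DNAJB9 by 1.31 and SIL1 by 0.56. LONP2 had 80.3 ± 1.90 CPM in monensin libraries and 87.4 ± 3.33 CPM in untreated libraries, a log2 fold change of -0.12 (adjusted p = 0.0301) that was 0.071 after GC content and length trends were taken out (adjusted p = 0.131).

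**Figure D4:**
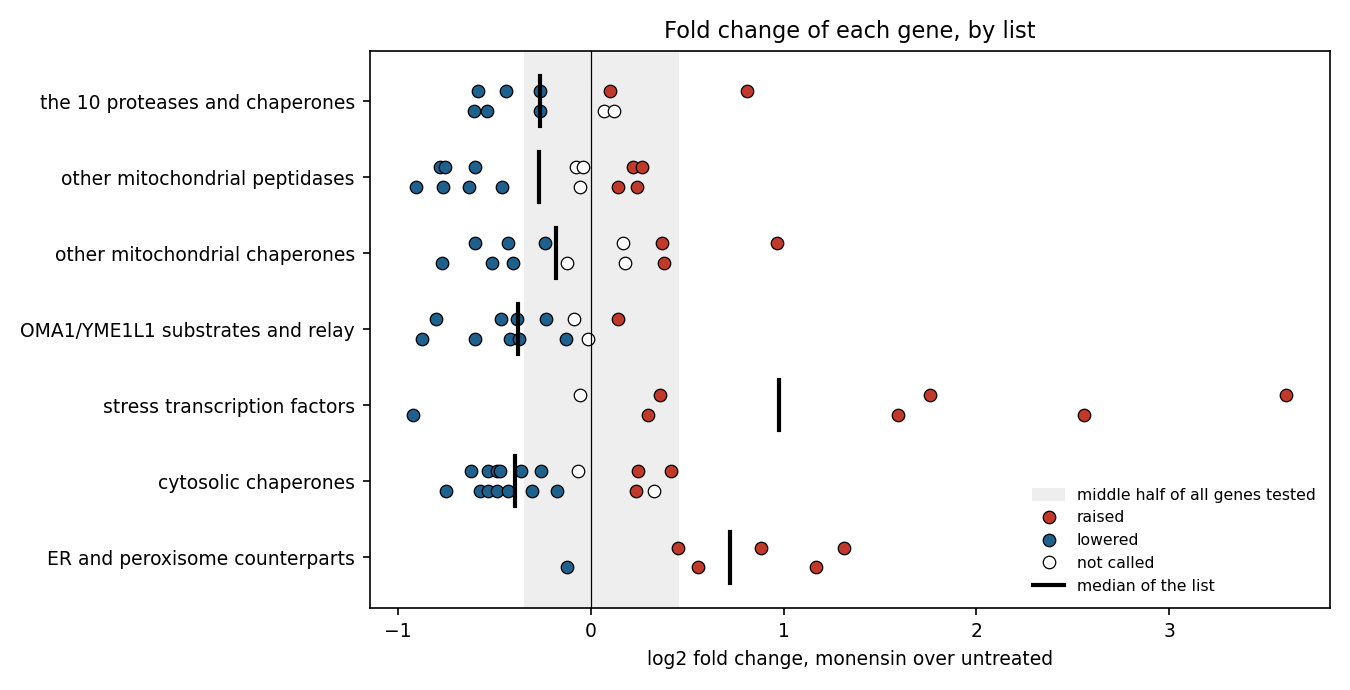
Log2 fold change of monensin over untreated (horizontal axis) for each tested gene of 7 lists (rows); red was raised, blue lowered and white not called, the black bar is the median of the list, and the grey band spans the middle 50% of all 16542 genes tested. The 10 proteases and chaperones lie between -0.60 and 0.81, with LONP1 apart at the right, while 4 stress transcription factors lie above 1.5.

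The authors' deposited table of regulated genes holds 2410 genes, each with an absolute log2 fold change above 1 (1.00 at the smallest). None of the 10 genes is in the authors' deposited table. Of the genes named beside them, the authors' deposited table lists DDIT3 (3.59), ATF5 (2.54), ATF4 (1.74), CEBPB (1.57), DNAJB9 (1.30) and HYOU1 (1.15) with log2 fold changes.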

How the data were processed

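Each library had raw counts of reads per Ensembl gene, deposited by the authors without normalization. The submitters' processing notes name HISAT2 2.1.0 and HTSeq 0.11.1, besides Trimmomatic 038, bcl2fastq and DESeq2 1.22.2, and build hg38 (GRCh38). Per the labels' protocols, RNA was extracted with Trizol and libraries were directional, with single reads of 75 nt. The annotation release, strand setting and overlap mode were not stated in the labels or files. Besides counts, the authors' deposited table gives log2 fold changes without errors. The 5 tally lines, 19.1% to 22.0% of tallied alignments, stayed out of library sizes and tests.

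Counts were fitted with edgeR 4.0.16 in R 4.3.3 (filterByExpr, TMM, quasi-likelihood F test, treatment as the only term, Benjamini-Hochberg over 16542 genes). Intervals of log2 fold changes are 95% t intervals. CPM uses library sizes multiplied by the TMM factor. Lengths, positions, GC content and overlaps came from GENCODE 29, which holds 99.8% of the identifiers in the files, and promoter windows from RefSeq (GRCh38.p14). The fit that took out GC content and length trends used splines with 5 degrees of freedom per library, over 16523 genes. DESeq2 1.42.0, other scalings and filters, the replicate number as a term, mitochondrial genes left out and each library left out in turn were the alternatives. The test scripts were tested on simulated data. Replicates of a group were neither identical nor within sampling noise (chi-square per degree of freedom 1.84 to 4.68). Nothing says that they came from separate cultures, so the spread behind each p-value is that between these samples and may be technical.

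The 10 genes and the other lists were chosen with earlier results of these data known, so lists are described and not tested. Named genes were the 10, in each list the up to 4 largest absolute changes among genes averaging 2 or more log2 CPM, those called against the majority of their list where 5 or fewer were, and copies and overlapping genes of the 10. DELE1 was matched through its gene identifier. MASTL, TUBB6 and RPL36 overlap members on the opposite strand.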

Additional observations from a re-analysis of the deposited data

How the results depend on the processing

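The calls of LONP1, CLPP, CLPX, HSPD1, HSPE1 and AFG3L2 kept their direction and stayed past the threshold in all 14 alternative fits. The number of the 10 genes raised was 1 with no filter (against 18.8% of all genes in that fit) and with the replicate block (33.3%). It was also 1 at an adjusted p under 0.01, and 1 to 2 when single libraries were left out (30.6% to 32.4%). The share of all genes at an adjusted p under 0.01 was not counted, so counts at that threshold have no background to be read against. HSPA9 was the gene that lost its call, with adjusted p from 7.17e-07 to 0.146 over the 14. The number raised was 3 after GC content and length trends were taken out (35.2%) and with total counts alone (39.8%). The number lowered was 6 in the main fit (33.7% of all genes tested), and 5 after GC content and length trends were taken out (32.9%), where YME1L1 was lost. SPG7 reversed there (-0.063), as did HSPB1 (-0.084) and LONP2 (0.071). Total counts alone raised 5 other mitochondrial chaperones in place of 3. The number raised among OMA1 and YME1L1 substrates and relay genes was 0 with no filter and at the stricter threshold, and 0 to 1 with single libraries left out. Of the cytosolic chaperones, 1 was raised after GC content and length trends were taken out. LONP2, the 1 lowered gene among the ER and peroxisome counterparts, left 0 lowered under that setting, the replicate block, the stricter filter, total counts alone and an adjusted p under 0.01, and 0 to 1 with single libraries left out. The cause of these changes was not tested. No sign was seen that the replicate numbers in the labels pair the libraries. Deviations of same-numbered libraries correlated at -0.12, 0.14 and 0.04, and those of differently numbered ones at -0.20 to 0.16. With 3 libraries a group, these values cannot exclude pairing. With the replicate block, 5515 genes were raised and 5435 lowered, against 5638 and 5570. Total counts alone gave 6582 raised and 4605 lowered, and there NRF1 reversed (0.029). Ratios between partners kept their direction with a prior count of 5 and without any single library, CLPX over CLPP from -0.32 to -0.20 and HSPE1 over HSPD1 from 0.11 to 0.24 on the log2 scale. After GC content and length trends were taken out, which was chosen for the ratios after seeing the data, CLPX over CLPP (0.22) and HSPE1 over HSPD1 (-0.076) reversed, and SPG7 over AFG3L2 was 0.31, LONP1 over CLPP 1.15 and HSPA9 over HSPD1 0.79. OMA1 had the fewest reads of the 10 genes, 183 to 255 a library.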
